A study of Mus musculus with 146 samples.

Results

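RNA of the whole brain homogenate at the maximum of EAE, experimental autoimmune encephalomyelitis, which models multiple sclerosis in mice, was compared with that of non-immunized mice. The comparison rests on 12 of the 146 libraries of the series, 6 inputs at the stage labelled Max and 6 inputs of the non-immunized group (NI), taken by their titles. All 716 genes of the authors' table of the disease course were used. That table covers 99 libraries of 6 stages, and each numbered replicate has an input, an anti-HA and an IgG library. Both groups were F1 mice of C57BL/6 and SJL with the genotype Cx3cr1-CreER:RPL22-HA. The Max group had relapsing-remitting EAE, and the NI group was named non-immunized in its titles although its treatment label names EAE too. All mice received tamoxifen by gavage, 5 mg on 4 occasions every other day, at 4 to 6 weeks of age. The age at tissue collection is not given in the labels.

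The input is 10 µl of cleared brain homogenate set aside before 10 µg of antibody was added to the rest. It holds RNA of every cell type of the brain and of any blood-derived cells in it, although its label names microglia. The anti-HA library of the same homogenate holds mRNA bound to ribosomes that carry the tagged protein RPL22-HA. Cx3cr1-CreER switches the tag on in cells that used the Cx3cr1 gene when tamoxifen was given, in the brain mainly microglia and macrophages of its borders. Cx3cr1 is also used by circulating monocytes, which are replaced from unlabelled precursors after tamoxifen. The IgG library is the isotype control of the precipitation. In EAE, T cells that recognise myelin enter the central nervous system together with monocytes, and microglia respond with interferon-induced, antigen-presentation and chemokine genes. Input and anti-HA libraries were therefore set side by side, gene by gene.

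The values are read counts per gene after division by 1 factor per library, called normalized counts below. Over the 716 genes the Max inputs held 84030 to 159540 reads (median 120328) and the NI inputs 49902 to 63387 (median 53913), counting the smallest step of a library as 1 read. The factors were 1.06 to 2.05 in the Max inputs and 0.994 to 1.24 in the NI inputs. After division by them the totals still differed, at 75620 to 112854 at Max and 47442 to 58467 in NI. The gap in reads is thus not a measure of sequencing depth alone. Of the 716 genes, 8 to 17 were at 0 in a Max input and 70 to 86 in an NI input, so low values in NI rest on few reads. In the median gene the input stood at 18.4% of the anti-HA level at Max and 19.9% in NI. The first principal component of the inputs held 79.6% of the variance and set the Max libraries (15.5 to 38.3) apart from the NI libraries (-26.3 to -22.6), with Max input 2 at 38.3. Max input 2 had the highest value in 242 of the 361 genes called higher at Max, while the anti-HA library of the same homogenate was highest in 74 of them. All 716 genes had passed the authors' own test in some comparison between anti-HA stages, so every count here is a count within a chosen list. The labels do not say that replicates were separate animals, and p-values measure only the spread between these libraries.

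In the whole homogenate, inflammatory genes were far more abundant at Max than in NI. Saa3 and complement, chemokine, antigen-presentation and interferon-induced genes rose together, while homeostatic microglial genes were spread around no change. Genes were tested with limma on log2(normalized count + 1), with Benjamini-Hochberg adjustment over the 716 genes, and called at an adjusted p below 0.05. By this test 361 genes were higher at Max (50.4% of those tested) and 6 were lower (0.838%), 51.3% in either direction. Of the genes called higher, 285 rose by at least 1 and 43 by at least 4 on the log2 scale, and the median log2 fold change of all 716 genes was 0.72. In 248 genes (34.6%) every Max input lay above every NI input. Only Fcrls (0.14%) had every Max input below every NI input. In bulk RNA, a change in the number of cells of a type and a change in RNA per cell cannot be told apart. The split of higher and lower calls depends on the scaling: median-of-ratios scaling of these genes gave 250 higher and 134 lower, TMM scaling with edgeR 248 and 133, and quantile normalization 161 and 304, with the median of all genes shifted by -0.54, -0.56 and -1.18. Without Max input 2 there were 333 higher and 6 lower.

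The acute-phase gene Saa3 and the complement gene Cfb were among those with the highest log2 fold changes. Below, means carry the SD over 6 libraries, log2 fold changes carry the SE, and positions are those of GRCm38 (GENCODE vM21). Saa3 (chr7:46711998-46715700), which encodes an inflammation-induced serum amyloid A protein, had 471 to 1658 normalized counts in the Max inputs (median 1005), against 3.23 to 9.54 in the NI inputs (median 5.24). The groups lay far apart, and the log2 fold change was 7.24 ± 0.32 (SE, limma, adjusted p 1.34e-09). Cfb, which encodes complement factor B, had 77.4 to 382 at Max (median 126) and 0 to 2.01 in NI (median 0.952), a log2 fold change of 6.22 ± 0.36. C3 (chr17:57203970-57228136), the central complement component, averaged 227 ± 77.4 at Max and 8.78 ± 4.38 in NI (SD, n = 6 each), a log2 fold change of 4.59 ± 0.30. C4b, of the classical complement pathway, averaged 364 ± 154 at Max and 63.6 ± 23.9 in NI, a log2 fold change of 2.47 ± 0.29. For C4b, Max inputs 1 to 3 lay above Max inputs 4 to 6. All 6 measured complement genes were called higher (median log2 fold change 2.84), beside 50.4% of all genes, although under quantile normalization 4 were. Of 16 genes on the acute-phase list only Saa3, Fgl2, Serpina3g and Serpina3f were in the table. All 4 rose under each scaling tried (median 3.70). The serpin gene Serpina3f was at 0 in all 6 NI inputs and averaged 18.0 at Max, at least 38.7-fold higher than the level of 3 reads over the group.

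The chemokine Ccl5 and the lysozyme gene Lyz2 followed. Ccl5 (chr11:83525778-83530518), a chemokine of T cells, NK cells and macrophages, had 414 to 1392 normalized counts at Max (median 828) and 2.42 to 10.5 in NI (median 8.27), a log2 fold change of 6.60 ± 0.36 (limma, adjusted p 3.7e-09). Lyz2 (chr10:117277331-117282321), the lysozyme of the myeloid lineage, had 1735 to 5457 at Max (median 2634) and 29.9 to 67.0 in NI (median 50.3). Its log2 fold change was 5.92 ± 0.30 (adjusted p 2.77e-09), and the lowest Max input was above the highest NI input for both genes. Cybb, which encodes the catalytic subunit of the phagocyte NADPH oxidase, had 50.6 to 189 at Max (median 92.4) and 0 to 1.94 in NI (median 1.44), a log2 fold change of 5.42 ± 0.34. Cd52, a surface glycoprotein gene of leukocytes, averaged 769 ± 351 at Max and 19.1 ± 3.87 in NI (5.18 ± 0.26), and Il2rg, the common gamma chain of interleukin receptors, 75.6 ± 15.1 at Max and 1.36 ± 0.879 in NI (5.10 ± 0.28). Lgals3, which encodes galectin-3, averaged 315 ± 150 at Max and 9.0 ± 1.91 in NI, a log2 fold change of 4.89 ± 0.27.

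**Figure D1:**
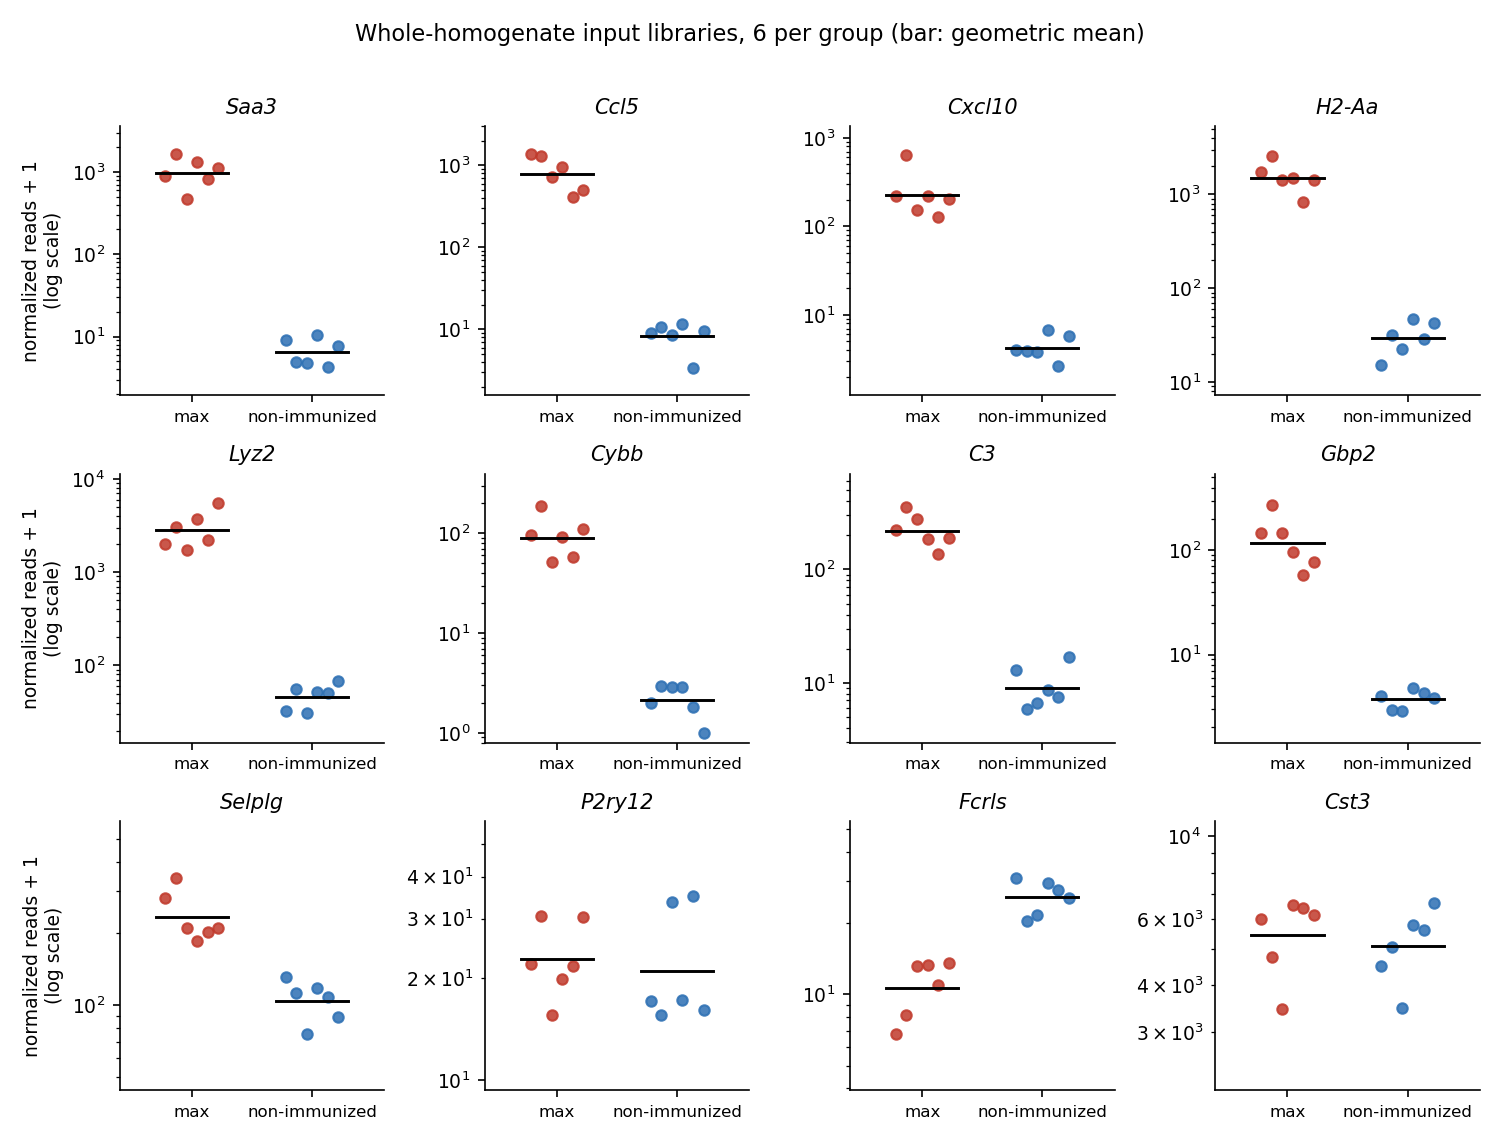
Normalized counts of 12 genes in the 6 Max inputs (left in each panel) and the 6 NI inputs (right), on a log axis of the value plus 1, with a point per library and a bar at the geometric mean. Saa3 lies between 471 and 1658 at Max and between 3.23 and 9.54 in NI, Fcrls is the gene lower at Max (5.80 to 12.6 against 19.4 to 30.2), and P2ry12 and Cst3 overlap.

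Antigen-presentation genes rose as a group, in a table where 50.4% of all genes were called higher. The classical class II genes, which encode the molecules that show peptides to CD4 T cells, were called higher in all 5 measured cases (median log2 fold change 5.31), and 4 of them were under quantile normalization, where Ciita lost its call. H2-Aa (chr17:34282744-34287823), a class II alpha chain, had 838 to 2580 normalized counts at Max (median 1476) and 14.1 to 45.8 in NI (median 29.3), a log2 fold change of 5.69 ± 0.31 (limma, adjusted p 3.7e-09). H2-Ab1 and H2-Eb1, the beta chains, changed by 5.39 ± 0.35 and 5.24 ± 0.29, and the invariant chain gene Cd74, at 1745 ± 1040 in Max and 37.9 ± 10.6 in NI, by 5.31 ± 0.39. Cd74 ran from 756 to 2927 at Max, with inputs 1 to 3 above inputs 4 to 6. Ciita, the transactivator of class II genes, was at 0 in every NI input and averaged 2.84 at Max, at least 6.10-fold higher than 3 reads over the group.

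Genes that load and process class II peptides were called higher in 8 of 9 cases (median 2.94, 7 under quantile normalization), beside 50.4% of all genes. Among them were Ctss, the lysosomal protease that trims the invariant chain, at 1928 ± 821 in Max and 171 ± 63.8 in NI (3.49 ± 0.31), and Ifi30, a lysosomal thiol reductase (4.01 ± 0.29). All 7 measured class I genes rose under each scaling tried (median 2.85), with the heavy chain gene H2-K1 at 1630 ± 780 in Max and 81.4 ± 13.6 in NI (4.19 ± 0.28). Of 11 genes of the immunoproteasome and peptide loading, 10 were higher (median 1.31), among them the proteasome subunit genes Psmb8 (4.11 ± 0.31) and Psmb9 (4.30 ± 0.31) and the peptide transporter gene Tap1 (4.21 ± 0.33). Quantile normalization left 4 higher and 2 lower there and turned Psmb10 and Erap1, and Psmb10 also turned under median-of-ratios scaling. Class I and class II genes have near copies, between which the counting of reads may have been uncertain.

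Interferon-induced genes also rose, beside the 50.4% of all genes called higher. Cxcl10 (chr5:92346638-92348889), a chemokine for CXCR3-bearing T cells, had 127 to 642 normalized counts at Max (median 212) and 1.62 to 5.72 in NI (median 2.96), a log2 fold change of 5.71 ± 0.35 (limma, adjusted p 1.29e-08). Its highest value, 642, came from Max input 2. Gbp2 (chr3:142620602-142638008), a guanylate-binding GTPase, averaged 131 ± 76.3 at Max and 2.78 ± 0.758 in NI (4.97 ± 0.32). All 5 measured interferon-inducible GTPase genes were higher (median 3.88, 4 under quantile normalization), as were 16 of 17 type I interferon effector genes (median 2.53, 11 under quantile normalization). The nucleic acid sensor gene Zbp1 rose by 5.20 ± 0.37. Of 10 genes of signalling by STAT, IRF and SOCS proteins 9 were higher (median 2.02, 6 under quantile normalization), with Irf7, a regulator of type I interferon genes, at 126 ± 79.6 in Max and 7.58 ± 3.55 in NI (3.91 ± 0.44).

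The promoters of the genes called higher were read for the letters of the interferon-stimulated response element, taken as GAAA, any 2 bases and GAAA, on both strands, in the window from 250 bases before to 50 after the RefSeq gene start (GRCm38.p6). The table's genes matched 554 promoters. The motif was present in 38 of 273 promoters of genes called higher (13.9%), in 9 of 276 of genes not called (3.26%), and in 943 of 27025 promoters of the sequence table (3.49%). The STAT element TTCNNNGAA was in 10.3% of promoters of genes called higher, 5.43% of those not called and 8.47% of all, and CCAAT, the box bound by NF-Y in class II promoters among many others, in 37.7%, 43.5% and 37.9%. Matches are a description of letters and not of binding. The 250 bases before the start are shown for Cxcl10 (chr5:92348890-92349139, minus strand), Gbp2 (chr3:142620413-142620662, plus strand) and Cybb (chrX:9469325-9469574, minus strand), whose RNA rose and which hold that repeat of GAAA, and for H2-Aa (chr17:34287824-34288073, minus strand), which holds CCAAT. They read 5′ to 3′ on the strand of the gene. Capitals mark the repeat of GAAA in Cxcl10, Gbp2 and Cybb and CCAAT in H2-Aa, as the reverse complement where the match lies on the other strand. The Cxcl10 and Cybb sequences also hold CCAAT, which is left in lower case. The first base of the match lies at -213 in Cxcl10, -59 in Gbp2, -168, -124 and -29 in Cybb and -48 in H2-Aa, counted from the start.
Cxcl10: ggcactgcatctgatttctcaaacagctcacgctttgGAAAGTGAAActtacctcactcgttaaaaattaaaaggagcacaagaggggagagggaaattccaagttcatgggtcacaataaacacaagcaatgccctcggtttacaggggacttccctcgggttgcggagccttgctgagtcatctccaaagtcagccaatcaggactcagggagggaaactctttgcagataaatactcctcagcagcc
Gbp2: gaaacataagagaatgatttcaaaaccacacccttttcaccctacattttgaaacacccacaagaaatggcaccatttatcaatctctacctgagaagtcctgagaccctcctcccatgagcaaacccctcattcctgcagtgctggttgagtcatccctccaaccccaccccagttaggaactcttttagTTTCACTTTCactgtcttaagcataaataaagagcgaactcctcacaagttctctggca
Cybb: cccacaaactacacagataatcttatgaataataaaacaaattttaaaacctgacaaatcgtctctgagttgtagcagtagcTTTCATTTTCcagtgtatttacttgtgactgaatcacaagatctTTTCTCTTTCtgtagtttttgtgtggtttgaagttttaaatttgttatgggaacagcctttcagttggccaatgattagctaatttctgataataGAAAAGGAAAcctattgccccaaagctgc
H2-Aa: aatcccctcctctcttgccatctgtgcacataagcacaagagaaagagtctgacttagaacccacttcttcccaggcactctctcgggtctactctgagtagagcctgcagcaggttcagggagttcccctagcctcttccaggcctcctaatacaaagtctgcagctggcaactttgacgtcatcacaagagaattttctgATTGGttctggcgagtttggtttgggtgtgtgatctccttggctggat
In Cxcl10 and the last Cybb match the motif lies on the strand of the gene, and in the other matches on the opposite strand.

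Chemokines and receptors of innate cells followed the same direction, beside the 50.4% of all genes called higher. Of 13 measured chemokine genes 12 were higher (median log2 fold change 3.62), and quantile normalization gave 11 higher and 1 lower. Ccl2, the main attractant of monocytes, averaged 42.1 ± 25.5 at Max and 0.801 ± 0.393 in NI, a log2 fold change of 4.45 ± 0.31. Cxcl9, another CXCR3 ligand, was at 0 in every NI input and averaged 10.8 at Max, at least 23.2-fold higher than 3 reads over the group. Of 12 cytokine and receptor genes 10 were higher (median 1.64), but 5 were higher and 1 was lower under quantile normalization, where Il15ra, Csf1 and Csf2ra turned negative. Of 6 genes of Fc and pattern recognition receptors 5 were higher under each scaling tried (median 3.20), such as Fcgr4, an activating Fc receptor gene, at 38.9 ± 25.4 in Max and 0.774 ± 0.385 in NI (4.27 ± 0.38), and Tlr2, a receptor of bacterial lipoproteins, at 45.3 ± 12.3 in Max and 2.29 ± 1.96 in NI (4.01 ± 0.37). Of 8 genes of co-stimulation and checkpoints 7 were higher (median 2.80), and quantile normalization gave 6 higher and 1 lower and turned Icosl. Cd274, the gene of the checkpoint ligand PD-L1, rose by 2.97 ± 0.45.

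Whether the whole homogenate and the tagged cells changed alike was tested as the difference of the 2 log2 fold changes, input minus anti-HA, in a limma fit of 24 libraries. This fit did not pair the input and anti-HA libraries of the same homogenate. Counts with the homogenate as a block are given with the alternatives below. In the anti-HA libraries 530 genes were higher at Max (74%) and 124 lower (17.3%), with a median log2 fold change of 1.19. The log2 fold change was larger in input for 174 genes (24.3%) and smaller for 189 (26.4%), 50.7% in either direction, and the median difference was -0.30. Larger and smaller are read with the sign, here and below. A gene that fell less in input than in anti-HA thus counts as larger in input. The count of smaller changes depends on the scaling, at 97 under median-of-ratios scaling and 56 with TMM, which shift the median difference by 0.50 and 0.77, and it was 313 with a pseudocount of 10. Of the 530 genes higher in anti-HA, 321 were higher in input too (44.8% of all genes), 207 were not called and 2 were lower (0.279%). Among those 321 genes the change was larger in input for 55, smaller for 67 and not called for 199. Of the 124 genes lower in anti-HA, 23 were higher in input (3.21%), 4 were lower (0.559%) and 97 were not called. The log2 fold change of 108 of these 124 genes was larger in input. The anti-HA calls are not independent of how the authors chose the genes, since the choice used anti-HA stages.

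**Figure D2:**
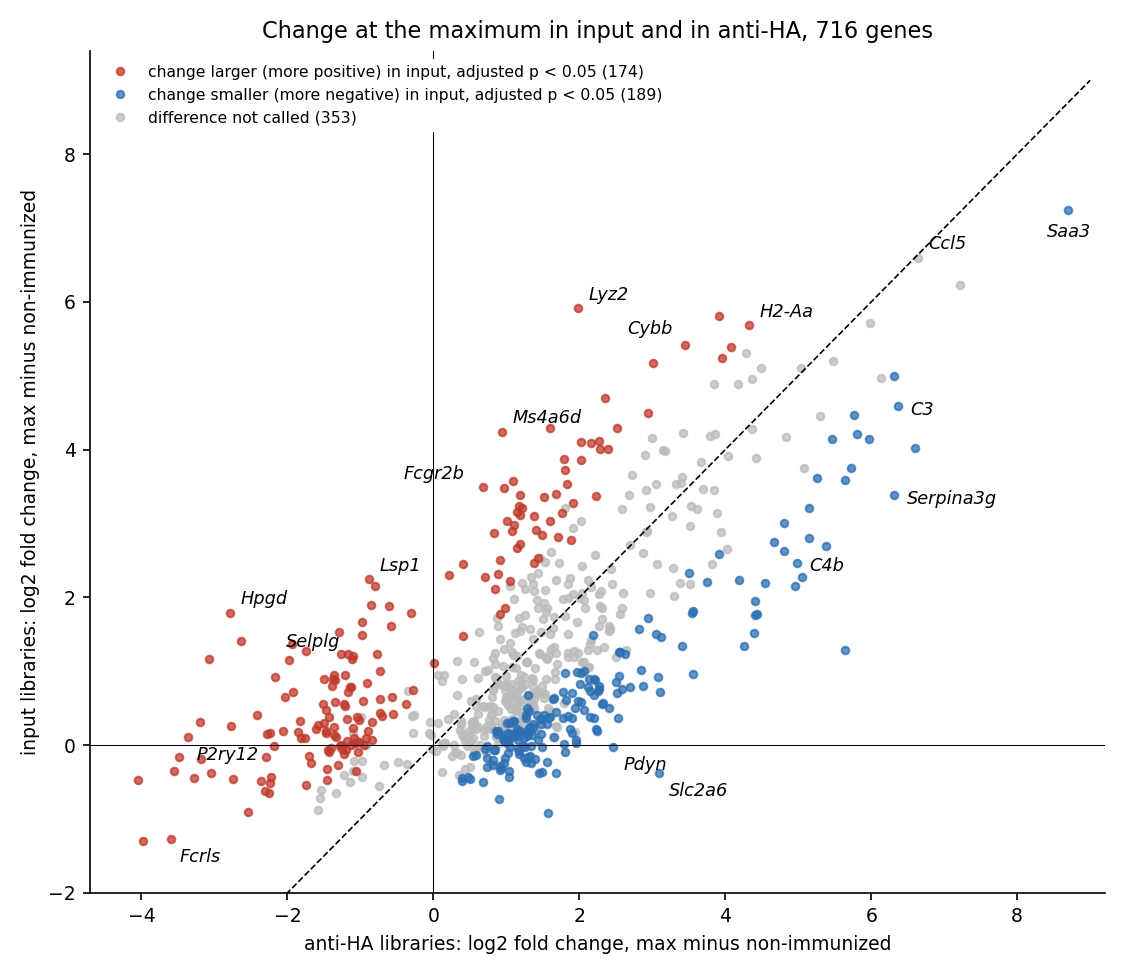
Log2 fold change of each of the 716 genes, Max minus NI, in the inputs (vertical axis) against that in the anti-HA libraries (horizontal axis), with the line of equal change. Red marks the 174 genes with a larger (more positive) log2 fold change in input, and blue the 189 with a smaller (more negative) one. Grey marks the genes where the difference was not called. Lyz2 lies above the line and C4b, C3 and Slc2a6 below it.

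Among the 55 genes that rose in both and more in input, Lyz2 had the largest difference. In the anti-HA libraries it averaged 10083 ± 3059 at Max and 2465 ± 412 in NI (SD, n = 6 each), a log2 fold change of 1.99 ± 0.27, so that the change in input was larger by 3.93 ± 0.39 (limma, adjusted p 5.19e-08). The input stood at 30.1% of the anti-HA level at Max and at 1.91% in NI. The IgG libraries averaged 1330 at Max and 50.5 in NI. Ms4a6d, a membrane protein gene of myeloid cells, averaged 43.9 ± 19.6 at Max and 1.41 ± 0.997 in NI inputs (4.25 ± 0.33), while its anti-HA change was 0.94, a difference of 3.31 ± 0.47. Fcgr2b, the inhibitory Fc receptor, averaged 52.7 ± 24.8 at Max and 3.63 ± 1.95 in NI inputs (3.49 ± 0.35), and its change exceeded that in anti-HA by 2.81 ± 0.44. Csf2rb2, a beta chain of cytokine receptors in mice, exceeded it by 2.70 ± 0.45, which shrank to 0.45 (adjusted p 0.196) with a pseudocount of 10.

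Of 9 genes of class II loading and processing, 4 had a larger log2 fold change in input than in anti-HA and 0 a smaller one. Of 11 genes of the immunoproteasome and class I peptide loading, 2 had a larger and 1 a smaller one and 8 did not pass the test, beside 24.3% larger and 26.4% smaller among all genes. Ctss rose by 3.49 in input and 0.96 in anti-HA, a difference of 2.52 ± 0.42 (limma, adjusted p 3.83e-05). Cybb differed by 1.97 ± 0.44 (0.08 and not called with a pseudocount of 10), Psmb8 by 1.84 ± 0.37, Psmb9 by 1.79 ± 0.41 (0.56 with that pseudocount) and Ifi30 by 1.61 ± 0.36. Cd52 differed by 2.17 ± 0.34 and Pirb, an inhibitory receptor of myeloid cells named after its values were seen, by 2.35 ± 0.38. H2-Aa rose by 5.69 in input and 4.33 in anti-HA, a difference of 1.36 ± 0.46 (adjusted p 0.0169). This call was lost without NI homogenate 3 (adjusted p 0.0528), and those of H2-Ab1 (1.31 ± 0.52) and H2-Eb1 (1.29 ± 0.49) without any of NI homogenates 1, 2 or 3 or of Max homogenates 2 or 6, and that of H2-Ab1 also without Max homogenate 1. Cd74 differed by 1.03 ± 0.65 (adjusted p 0.182, or 0.0336 with the homogenate as a block).

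Other genes moved in opposite directions in the homogenate and in the tagged cells. The 23 genes called higher in input and lower in anti-HA had median log2 fold changes of 1.20 in input and -1.16 in anti-HA. Hpgd, which encodes the enzyme that inactivates prostaglandins, had 15.3 to 42.8 normalized counts in Max inputs (median 21.0) and 2.86 to 16.2 in NI inputs (median 5.73). NI input 5, at 16.2, lay above the lowest Max input, and the log2 fold change was 1.79 ± 0.36 in input against -2.79 ± 0.43 in anti-HA, a difference of 4.58 ± 0.61 (limma, adjusted p 5.51e-06). Lsp1, a leukocyte protein gene that binds actin, averaged 101 ± 39.6 in Max and 19.5 ± 3.74 in NI inputs (2.24 ± 0.25), and changed by -0.88 in anti-HA. Gimap6, a GTPase gene of lymphocytes named after its values were seen, rose by 1.17 ± 0.25 in input and fell by 3.07 in anti-HA. The rise of Hpgd lost its call under quantile normalization.

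At the other end, 189 genes had a smaller (more negative) log2 fold change in input than in anti-HA. Slc2a6, a hexose transporter gene, had 28.4 to 50.2 normalized counts in Max inputs (median 37.9) and 42.7 to 77.4 in NI inputs (median 43.7). The input change of -0.38 ± 0.20 was not called (limma, adjusted p 0.143), the anti-HA change was 3.09, and the difference was -3.46 ± 0.31 (adjusted p 1.08e-08). Pdyn, the precursor of dynorphin peptides made by neurons, had 71.0 to 89.6 in Max inputs and 58.5 to 132 in NI inputs (-0.02 ± 0.20), and changed by 2.46 in anti-HA. Both genes fell below 0 with a call in input under the other 3 scalings. Apoe, the main lipid carrier of the brain, averaged 11979 ± 1752 in Max and 9937 ± 2208 in NI inputs, a change of 0.28 ± 0.19 that was not called, against 1.56 in anti-HA. Apoc1, another apolipoprotein gene, rose by 1.76 ± 0.22 in input, less than in anti-HA by 2.65 (difference -2.65 ± 0.41). C4b differed by -2.51 ± 0.39, C3 by -1.78 ± 0.38 and the interleukin-12 receptor gene Il12rb1 by -2.81 ± 0.58. Saa3 differed by -1.45 ± 0.48 (adjusted p 0.0138), a call lost under median-of-ratios scaling (-0.96, adjusted p 0.0852) and TMM (-0.76, 0.202). Ccl5 and Cxcl10 differed by -0.04 ± 0.47 and -0.27 ± 0.49, which were not called.

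Microglial homeostatic genes, by which resting microglia are recognised, were counted in input and in anti-HA. Of 20 such genes 13 were in the table, and Tmem119 and Cx3cr1 were not among them. In anti-HA all 13 measured genes of the list were lower at Max (median log2 fold change -1.93), against 17.3% of all genes. In input 5 were higher, 2 lower and 6 not called (median 0.11). Among all 716 genes 50.4% were higher and 0.838% lower in input (median 0.72). Only 1 of the 13 was higher and 5 were lower under TMM or median-of-ratios scaling. Under quantile normalization 0 were higher and 7 lower, and P2ry13, Siglech and Tgfbr1 turned negative. Each of the 13 log2 fold changes was called more positive in input than in anti-HA (median difference 2.32). The same call was made for 108 of all 124 genes lower in anti-HA. Of the 13, 11 to 13 kept that call under the other scalings, tools and pseudocounts tried. The genes were chosen on anti-HA stages, so these counts are not independent of that choice. P2ry12 (chr3:59216272-59262871), the purinergic receptor of resting microglia, had 14.6 to 29.6 normalized counts in Max inputs (median 20.9) and 14.5 to 33.9 in NI inputs (median 16.2). The groups overlap, and the change of 0.11 ± 0.27 was not called (limma, adjusted p 0.746). In anti-HA it averaged 56.3 ± 30.4 at Max and 518 ± 146 in NI, and the difference between the changes was 3.47 ± 0.48 (adjusted p 7.67e-06). Input stood at 39.8% of the anti-HA level at Max and 4.14% in NI.

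Selplg (chr5:113818536-113832644), which encodes P-selectin glycoprotein ligand 1 and is used by leukocytes as well as microglia, had 185 to 341 normalized counts in Max inputs (median 209) and 74.8 to 130 in NI inputs (median 109). The inputs did not overlap, with a log2 fold change of 1.17 ± 0.21 (limma, adjusted p 0.000224), while anti-HA changed by -1.11. Quantile normalization reduced the input change to 0.10 (adjusted p 0.582). Sparc, a matrix protein gene that astrocytes and vessels also use, averaged 1973 ± 383 at Max and 1057 ± 329 in NI inputs (0.95 ± 0.25) and changed by -1.37 in anti-HA. Its input call was lost under TMM, median-of-ratios and quantile scaling. Cst3 (chr2:148871722-148875692), which encodes the protease inhibitor cystatin C, averaged 5563 ± 1207 at Max and 5184 ± 1100 in NI inputs (0.10 ± 0.22), against -1.76 in anti-HA, and its input change turned to -0.55 under median-of-ratios scaling and -0.52 with TMM. Fcrls (chr3:87250758-87263738), an Fc receptor-like gene of microglia, had 5.80 to 12.6 in Max inputs (median 11.0) and 19.4 to 30.2 in NI inputs (median 25.6). It changed by -1.27 ± 0.22 on the log2 scale (limma, adjusted p 0.000162), against -3.59 in anti-HA. Gpr34, a lysophospholipid receptor gene, was at 0 to 0.839 in Max inputs and 0 to 0.944 in NI inputs, too few reads to see a change.

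**Figure D3:**
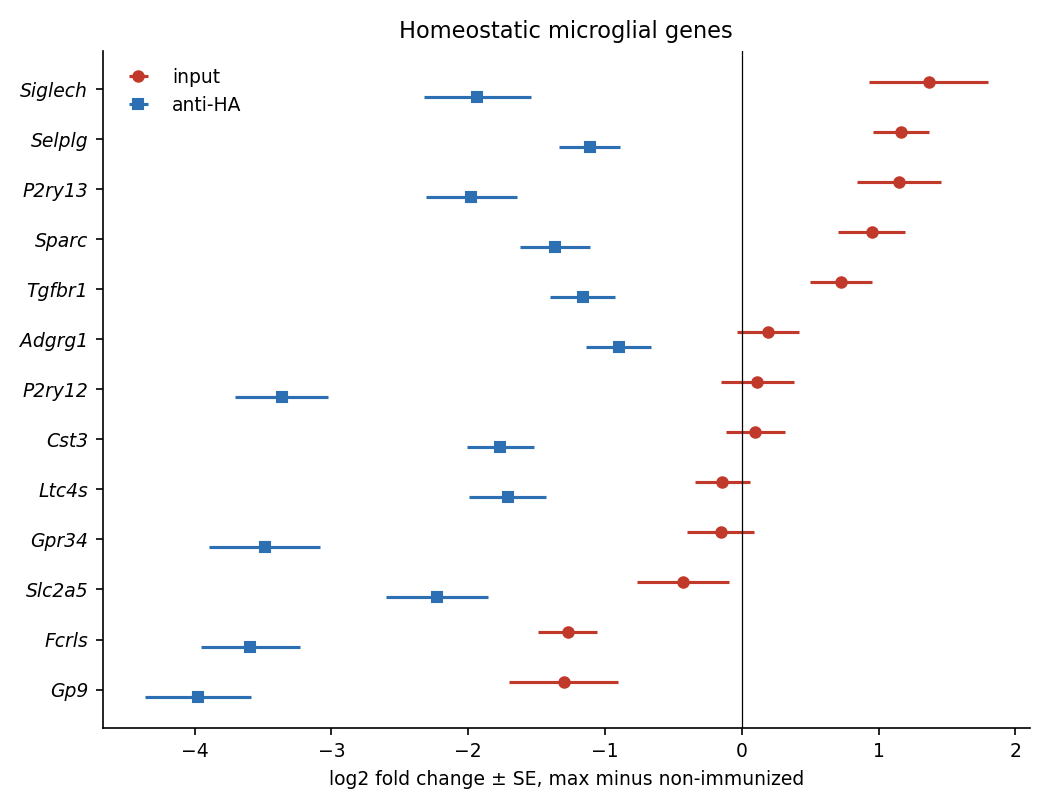
Log2 fold change, Max minus NI, of the 13 measured homeostatic microglial genes in the inputs (red) and in the anti-HA libraries (blue), with bars for the SE. All 13 lie below 0 in anti-HA, while the inputs run from -1.30 in Gp9 to 1.36 in Siglech.

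The 6 genes called lower in input were Fcrls, Gp9, Vipr1, Kcnk12, E2f1 and Etv4. At an unadjusted p below 0.05 there were 14, and edgeR and DESeq2 with the deposited scaling gave 9 each, and limma gave 11 without NI input 3. Gp9, a platelet glycoprotein gene that microglia also use, averaged 0.946 ± 1.08 at Max and 3.77 ± 2.38 in NI (-1.30 ± 0.40). Fcrls, Gp9, Vipr1 and Kcnk12 were lower in anti-HA as well. E2f1, a transcription factor of the cell cycle, averaged 27.1 ± 5.87 at Max and 46.1 ± 13.2 in NI inputs (-0.73 ± 0.22, limma, adjusted p 0.0111) but rose by 0.90 in anti-HA. Etv4 (chr11:101769742-101785371), an ETS family factor, had 8.52 to 32.1 in Max inputs and 16.2 to 57.2 in NI inputs (-0.92 ± 0.34, adjusted p 0.035) and rose by 1.57 in anti-HA. The call of Etv4 was lost without any of NI inputs 1, 2, 3 or 4 or Max inputs 4, 5 or 6, and that of Kcnk12, a potassium channel gene, without any of NI inputs 1, 2 or 4 or Max inputs 1, 2, 5 or 6.

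Markers of other cells were counted from lists of genes known for each type. Of 27 monocyte genes 6 were in the table (Ms4a4c, Ms4a6c, Ly6a, Lyz2, Ifitm2 and Ifitm3). All 6 were higher in input (median 2.54, 5 under quantile normalization), beside 50.4% of all genes. They were all higher in anti-HA too (median 2.61), where 74% of all genes were higher. Their summed level was 2089 to 5801 in Max inputs and 110 to 188 in NI inputs, and Lyz2 made up most of it. The defining monocyte genes Ly6c2 and Ccr2 and the neutrophil genes S100a8, S100a9 and Lcn2 were not among the 716 genes. The differences were larger in input for Lyz2 and Ms4a6c and smaller for Ly6a, an interferon-induced surface protein gene that vessels also use (-2.36 ± 0.59). The call of Ms4a6c (1.55 ± 0.55) was lost without NI homogenate 3 or Max homogenate 2.

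Of 20 neutrophil genes only Mmp9, a matrix protease gene, was in the table, at 8.10 to 15.2 in Max inputs and 3.23 to 8.05 in NI inputs (0.89 ± 0.24), and it fell by 1.37 in anti-HA. Cd22 was the only one of 16 B cell genes, at 6.30 to 22.4 in Max inputs and 0 to 1.01 in NI inputs, and microglia use it as well. Ccl5 was the only one of 12 NK cell genes and Pdyn the only one of 17 neuronal genes. None of the 25 T cell, 13 astrocyte, 13 oligodendrocyte or 14 mural cell genes was in the table, so the part of those cells in the homogenate was not tested. Of 5 dendritic cell genes 3 (Bst2, H2-Oa and Siglech) were higher in input, beside 50.4% of all genes. Each of these 3 was also counted in another list. Fscn1 and Cd209a were not called, and Cd209a had 0 or 1 read in each Max input. There were 2 higher and 1 lower under TMM and median-of-ratios scaling and 2 and 2 under quantile normalization, where Siglech turned. Of 3 endothelial genes 1 was higher, beside 50.4% of all genes, and Pecam1 and Fabp5 were not called. The gene called was Icam1, an adhesion molecule gene that immune cells use too (36.9 ± 23.5 at Max and 3.37 ± 2.01 in NI, 3.14 ± 0.46). Pdcd1, the checkpoint receptor PD-1 of activated T cells, was at 0 in all 6 NI inputs and at 2.43 to 7.17 in Max inputs, at least 10.1-fold higher than 3 reads over the group, while its anti-HA level of 27.8 ± 11.4 at Max and 19.9 ± 4.92 in NI did not pass the test (adjusted p 0.113). It was named after its values were seen.

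Border macrophage genes, which mark the macrophages of meninges and vessels, were called higher in input for 6 of 11 and lower for 0 (median 1.00), near the 50.4% higher among all genes. There were 4 higher under TMM or median-of-ratios scaling, and under quantile normalization 1 was higher and 4 were lower, with Cbr2, Fcna and Marco turning. In anti-HA 4 were higher and 6 lower, against 74% and 17.3% of all genes. Pf4, a chemokine gene, had 11.7 to 23.9 in Max inputs (median 19.9) and 12.1 to 19.4 in NI inputs (median 16.4), a change of 0.27 ± 0.20 that was not called, and it fell by 1.58 in anti-HA, a difference of 1.85 ± 0.35 (limma, adjusted p 0.000156). Cbr2, a carbonyl reductase gene, averaged 23.9 ± 5.54 at Max and 11.4 ± 2.52 in NI inputs (1.00 ± 0.20), a call that TMM and median-of-ratios scaling also ended. F13a1, a coagulation factor gene that monocytes use too, averaged 29.8 ± 11.9 at Max and 5.17 ± 2.04 in NI inputs (2.27 ± 0.32), 1.56 ± 0.45 more than in anti-HA (0.66 and not called with a pseudocount of 10). The scavenger receptor gene Cd163 rose by 1.61 ± 0.36, a call that quantile normalization ended. The summed level of the 11 genes was 70.6 to 143 in Max inputs and 39.2 to 61.1 in NI inputs.

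**Figure D4:**
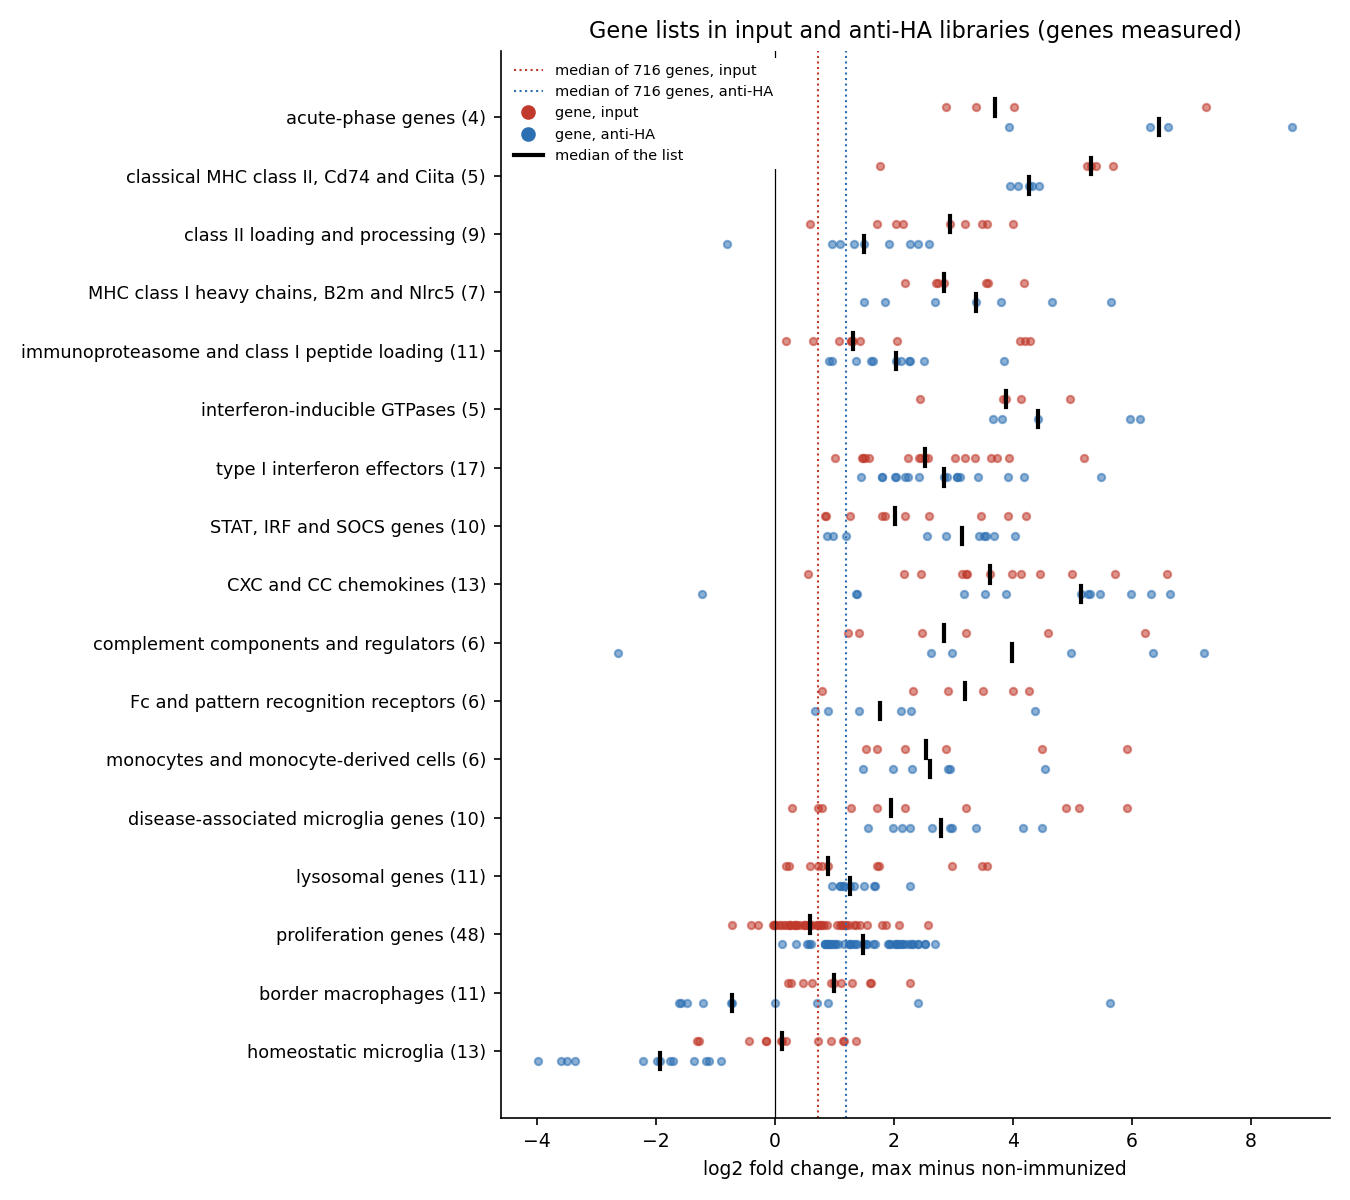
Log2 fold changes, Max minus NI, of the members of 17 gene lists in the inputs (red, upper) and in the anti-HA libraries (blue, lower), with a point per gene and a bar at the median of the list. Dotted lines mark the medians of all 716 genes, 0.72 in input and 1.19 in anti-HA. Class II genes lie highest in input (median 5.31) and homeostatic genes near 0 (0.11).

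Genes of the disease-associated state of microglia were called higher in 9 of 10 cases (median 1.96), beside 50.4% of all genes. Under quantile normalization 4 were higher, and Csf1 and Cd63 turned. Cst7, an endosomal cystatin gene, averaged 94.2 ± 48.7 at Max and 1.65 ± 1.07 in NI inputs (5.10 ± 0.34), and Spp1, which encodes osteopontin, 178 ± 56.0 at Max and 69.7 ± 10.7 in NI inputs (1.28 ± 0.24, a call lost under quantile normalization). Apoe, whose change of 0.28 is given above, was the member not called. Beside the 50.4% of all genes called higher, lysosomal genes were higher in 8 of 11 cases (median 0.89), with 5 higher and 1 lower under TMM, median-of-ratios and quantile scaling. Genes of lipid handling were higher in 4 of 6 (median 1.51, 2 under quantile normalization), and Fabp5, a fatty acid binding protein gene, was at 49.2 to 408 in Max inputs and 58.9 to 320 in NI inputs (0.18 ± 0.55, not called). Genes of matrix and adhesion were also higher in 6 of 9, beside the same 50.4%, with 5 higher and 2 lower under TMM and median-of-ratios scaling. In 7 of those 9 the change was smaller in input than in anti-HA, against 26.4% of all genes.

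Of 48 measured proliferation genes 21 were higher in the homogenate and 1, E2f1, was lower (median 0.59, against 0.72 and 50.4% higher for all genes). Their changes ran from -0.73 to 2.57. In anti-HA 44 were higher, against 74% of all genes, and 0 lower (median 1.49). The input counts were 7 higher and 7 lower with TMM, 9 and 8 under median-of-ratios scaling and 1 and 27 under quantile normalization, and 14 higher without Max input 2. The change was smaller in input for 16 of the 48 and larger for 0 (2 and 2 with TMM), against 26.4% smaller among all genes. Mki67, the marker of cycling cells, had 1.45 to 4.74 normalized counts in Max inputs (median 2.11) and 0 to 0.969 in NI inputs, with 2 reads over the 6 NI libraries. Its change passed the test (adjusted p 0.000326), and turned to -0.14 under quantile normalization. Rrm2, a ribonucleotide reductase subunit gene, averaged 4.80 ± 2.29 at Max and 0.634 ± 0.491 in NI (1.81 ± 0.29, a call lost under quantile normalization).

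The IgG libraries, which carry RNA that sticks without the tag, also differed between the stages. Over the 716 genes they held 31411 to 162205 reads at Max and 13068 to 54952 in NI. In 193 genes (27%) every Max IgG library lay above every NI IgG library, and in 2 (0.279%) every one lay below. Saa3 averaged 356 in Max IgG and 17.3 in NI IgG libraries, and H2-Aa 1052 in Max IgG and 60.1 in NI IgG libraries. The anti-HA values above were not corrected for this background, and its part in the differences between input and anti-HA was not tested.

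The other stages of the course place the Max inputs. Medians of normalized counts in the inputs of NI (6 libraries), initiation (4), Max (6), remission (8), cure (5) and relapse (4) are given in that order. Saa3 had 5.24, 594, 1005, 85.1, 18.6 and 86.3. Cxcl10 had 2.96, 150, 212, 53.4, 18.8 and 24.9. The Max median of each was the highest, and that of initiation came next. Lyz2 had 50.3, 544, 2634, 517, 484 and 438, and H2-Aa had 29.3, 327, 1476, 801, 505 and 554. Both medians were also highest at Max, and those of the later stages stayed above NI. Single libraries overlapped between stages. Lyz2 ran from 205 to 3000 at initiation and from 92.0 to 2721 at cure, against 1735 to 5457 at Max. Selplg had 109, 240, 209, 186, 145 and 212, and Fcrls had 25.6, 16.8, 11.0, 17.5, 23.1 and 18.1. Fcrls was lowest at Max, while Selplg at Max lay between other stages. P2ry12 had 16.2, 14.9, 20.9, 29.2, 36.7 and 26.8, with Max among the lower medians. These levels over stages are a description, with no test.

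**Figure D5:**
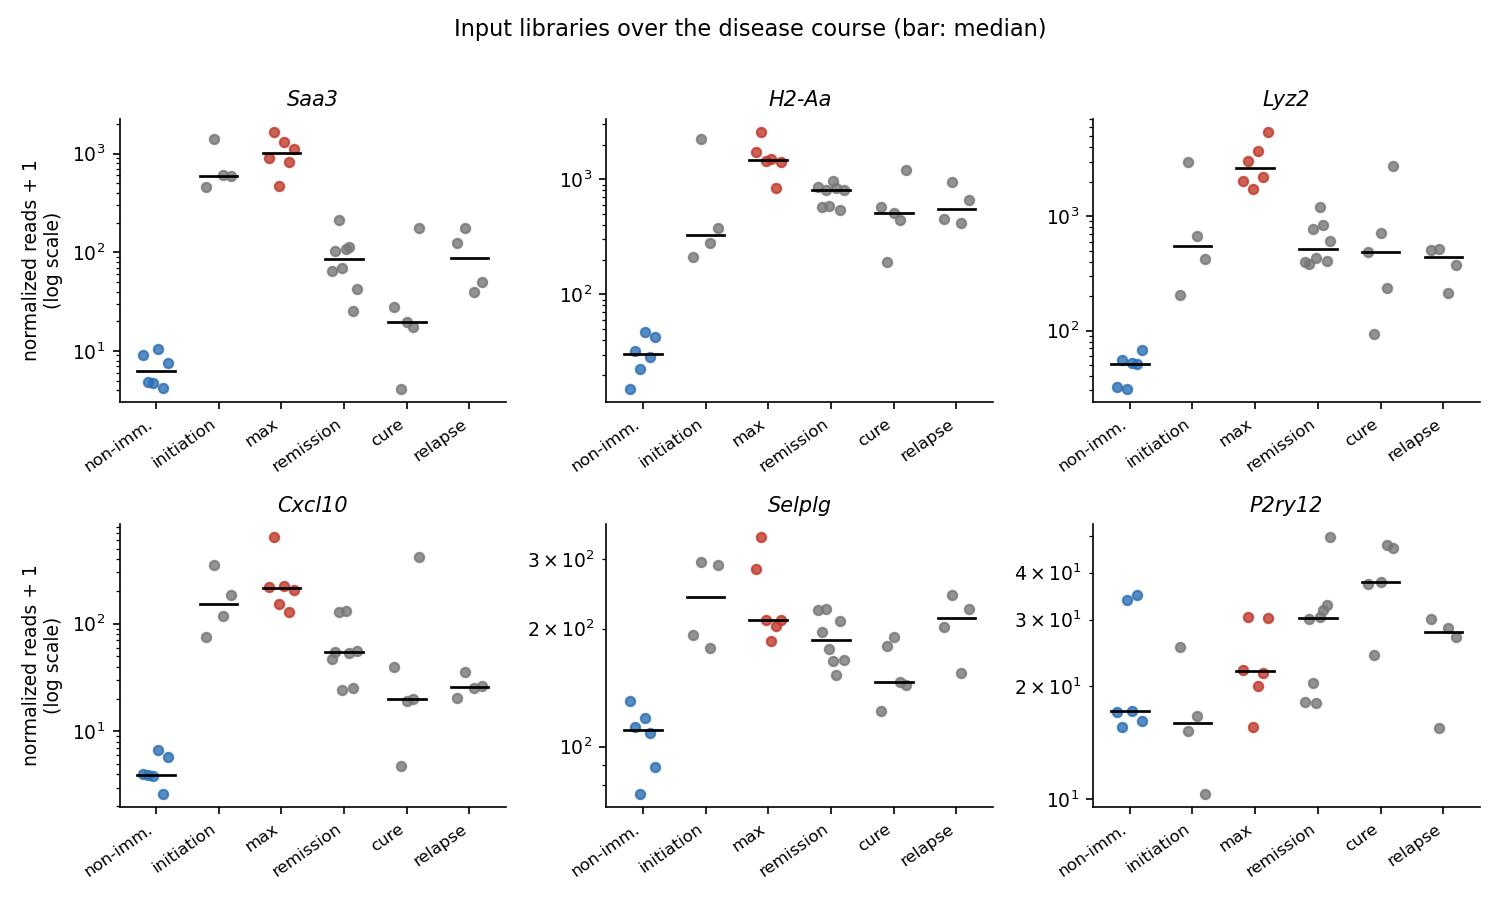
Normalized counts of 6 genes in the 33 inputs by stage, in the order NI, initiation, Max, remission, cure and relapse, on a log axis of the value plus 1, with a point per library and a bar at the median. Lyz2 has its highest median at Max (2634), and its medians at initiation and after Max lie between 438 and 544, against 50.3 in NI. Single libraries reach 3000 at initiation and 2721 at cure.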

How the data were processed

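Brains were perfused with PBS and homogenised with cycloheximide, and polyA RNA was captured, per the labels' protocols. The genome build was mm10, as the submitters' processing notes name it. Which aligner, counter, annotation and strand setting the authors used is not given in the sources used here. The deposited unit is a signal, the count of a gene scaled by 1 factor per library. This was read from the values, which in each Max and NI library, input, IgG and anti-HA, were all (100%) whole multiples of 1 step to within 0.01 of a step. In 4 anti-HA libraries of other stages 17.6% to 51.8% of values were. No sample column was left without a label.

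On log2(value + 1), the 12 inputs were fitted with limma 3.58.1 (R 4.3.3), and the difference between input and anti-HA over 24. P-values are two-sided and adjusted by Benjamini-Hochberg over 716 genes. On this scale the change of low genes is understated. edgeR 4.0.16 and DESeq2 1.42.0 on the recovered reads, other scalings, pseudocounts, filters and left-out libraries were alternatives. The fits were also run on simulated reads in which equal numbers of genes rose and fell. That setting cannot probe a change in the same direction in most genes. Tables and figures were made with Python 3.11.15 and pandas 2.3.3. Positions come from GENCODE vM21 (696 of 716 genes) and promoters from RefSeq, GRCm38.p6.

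Input and anti-HA libraries of 1 stage and number come from the same homogenate, per the labels' protocols. Their deviations from the group means correlated at 0.224 to 0.450 at Max and 0.0100 to 0.228 in NI.

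Members, gene lists and tests were chosen with earlier results of these data known. The rule for named genes gave 93: the 12 highest and 8 lowest called input changes and the 8 highest and 8 lowest called differences among genes at or above the median level (20.9), the 3 members with the smallest p in any list that had 3 or more in the table, and a fixed set. Gp9, Gpr34, Mmp9, Cd22, Ang, Tcn2, Klrb1b, Xdh and Itgal fall outside it and were chosen after their values were seen, as were the members named only because their sign turned. Near copies (class I and II, serpin, chemokine and lysozyme genes) and overlapping genes may share reads. Some genes are not reported here.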

Additional observations from a re-analysis of the deposited data

Results flagged for a closer look

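The 93 named genes gave 186 groups of 6 inputs. Those not at 0 throughout were examined for a library far from the others, and 18 had one. The chance rate of about 1 in 20 is for continuous values and does not hold for groups of 0 or 1 read. In Max input 2, Cxcl10 was at 642 (the other Max inputs at 127 to 222), Serpina3g at 82.4 (17.6 to 27.5) and Slamf8 at 59.1 (20.8 to 29.2). In Max input 3, Cd163 was at 5.84 (11.7 to 17.1) and Pf4 at 11.7 (18.8 to 23.9). In NI input 5, Ccl5 was at 2.42 (7.48 to 10.5), Cd74 at 17.8 (37.8 to 47.3) and Ccl2 at 0 (0.935 to 1.01). In NI input 2, AB124611 was at 4.85 (0 to 0.808), Itgb7 at 6.79 (2.42 to 3.02), Irf7 at 0.969 (6.61 to 11.1), Fcgr4 at 0 (0.808 to 1.01) and Apoc4 at 0.969 (the others at 0). In NI input 1, Icam1 was at 0 (2.80 to 5.82) and Slc2a6 at 77.4 (42.7 to 52.5). Tap1 was at 4.67 in NI input 3 (7.27 to 9.05), Batf2 at 0.935 in NI input 3 and Gbp8 at 0.954 in NI input 4, with the other NI inputs at 0. A value of about 1 is 1 read.

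The change at Max relative to NI differed between input and anti-HA by a test of the difference itself, larger in input for 174 genes and smaller for 189. Of the named genes called in both with opposite signs, the difference (input minus anti-HA, log2) was 4.58 for Hpgd, 3.30 for Siglech, 3.12 for Lsp1, 2.32 for Sparc, 2.28 for Selplg and 1.73 for Cbr2, which were higher at Max in input and lower in anti-HA. It was -2.48 for Etv4 and -1.62 for E2f1, which were lower at Max in input and higher in anti-HA.

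The IgG libraries, which no comparison used, had 193 genes with every Max library above every NI library.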

How the results depend on the processing

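The count of genes higher at Max in input stayed between 242 and 382 under every alternative except quantile normalization (161), and that of genes lower, 6 as reported, became 304 under quantile normalization, 134 under median-of-ratios scaling, 133 under TMM with edgeR and 13 with all 33 inputs in the fit. Run on chosen genes only, these 3 scalings centre a change that most of the genes share, by construction. Leaving out 1 input gave 333 to 360 higher and 4 to 11 lower. For the difference between input and anti-HA, the count of smaller changes became 313 with a pseudocount of 10, 97 under median-of-ratios scaling and 56 under TMM, and that of larger changes stayed between 145 and 250. Leaving out 1 homogenate gave 155 to 187 larger and 159 to 192 smaller. The replicate number as a block gave 370 higher and 7 lower in input, and Kcnk12 lost its call (adjusted p 0.0659). The labels do not say that the numbers pair Max and NI inputs. Their deviations correlated at -0.0230 to 0.168, over 0.1 in 4 of 6 pairs, and the main fit paired no inputs by number. Some genes, such as Fabp5 and Psap, split inputs 1 to 3 from inputs 4 to 6 in both groups. Fabp5 had 84, 110 and 63 reads in NI inputs 1 to 3 and 244, 325 and 339 in 4 to 6. At Max it had 123, 145 and 101, then 431, 372 and 334. Cd74 and C4b split only the Max inputs, with higher values in inputs 1 to 3. Before scaling, Cd74 had 4041, 3220 and 4459 reads there and 798, 961 and 1031 in inputs 4 to 6. C4b had 649, 689 and 743, then 254, 265 and 304. The main fit has no term for such a split, and its cause was not tested. The homogenate as a block gave 189 larger and 219 smaller. Among the calls it added were those of Gbp2, Spp1, Cd163, Ch25h, Fabp5 and Cd74, and it took none from the named genes. Input changes that turned sign under quantile normalization were those of Cbr2 (-0.19), Siglech (-0.23), Mki67 (-0.14), P2ry12 (-1.0) and Pf4 (-0.91), and Cst3 turned under median-of-ratios scaling (-0.55) and TMM (-0.52). Differences between input and anti-HA turned with a pseudocount of 0.1 for Siglec1 (1.87). With a pseudocount of 10 they turned for AB124611 (-0.47), Ms4a6c (-0.14), Icam1 (-0.010), Batf2 (-0.83), Il2rg (-1.54), Itgax (-1.36), Tlr2 (-0.034), Slamf8 (-0.74) and Cst7 (-1.22). They turned under median-of-ratios scaling for Gbp8 (0.062), Irg1 (0.35) and Cxcl9 (0.022), by edgeR with the deposited scaling for H2-M2 (0.23), Irg1 (0.84) and Cxcl9 (0.22), and by DESeq2 for Irg1 (0.28). Under TMM they turned for Siglec1 (4.09), H2-M2 (2.51), Gbp8 (0.52), Serpina3f (1.63), Irg1 (3.06), Ciita (1.44) and Cxcl9 (2.45). The cause was not tested. A further 107 sign changes were between values not called. Of 84 named input changes that were called, Etv4 and Kcnk12 lost the call without 1 library, and of 58 called differences Gbp8, H2-Aa, H2-Ab1, H2-Eb1, Icam1, Irg1 and Ms4a6c did. Depth limits genes with few reads: 15 genes were at 0 in all NI inputs and 46 had 1 to 3 reads there.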

Other observations

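In the whole homogenate, 17 genes were called higher at Max that the anti-HA libraries did not call. Among them were Ang, which encodes the ribonuclease angiogenin, at 13.1 ± 6.30 in Max inputs and 2.99 ± 2.04 in NI inputs (log2 fold change 1.88 ± 0.38, limma, adjusted p 0.000676), and Tcn2, which encodes the vitamin B12 carrier transcobalamin, at 95.9 ± 18.2 in Max inputs and 50.8 ± 8.55 in NI inputs (0.90 ± 0.19). Their anti-HA changes were -0.61 and 0.40. Irg1, the itaconate-producing enzyme of activated macrophages, was at 0 in all 6 NI inputs and at 11.6 to 51.1 in Max inputs, at least 43.9-fold higher than 3 reads over the group. Klrb1b, a lectin-like receptor gene of NK cells, was likewise at 0 in NI inputs and at 2.52 to 8.07 in Max inputs, at least 11.9-fold higher, and it was also higher in anti-HA (4.02 ± 0.43).

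A pair of further genes, chosen after their values were seen, rose less in the homogenate than in the tagged cells. Itgal, the alpha chain of the integrin LFA-1, rose by 1.95 ± 0.31 in input and by 4.40 ± 0.32 in anti-HA (limma, difference -2.45 ± 0.46, adjusted p 0.000131). Xdh, which encodes xanthine dehydrogenase, rose by 1.52 ± 0.34 in input and by 4.40 ± 0.28 in anti-HA. Called genes were spread over all levels: 120 of 226 genes with a mean input value under 10 were higher at Max, 180 of 377 between 10 and 100, and 61 of 113 above 100.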
